A study of Rattus norvegicus with 15 samples.

Results

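Potassium channel genes were followed across 15 arrays of rat nucleus accumbens, the ventral part of the striatum, known for its role in reward and in relapse to drugs. The genes were taken by symbol: each carried a Kcn symbol on a probe set with 1 platform symbol, was represented by its probe set with the highest mean, and had a mean over the 15 arrays of at least 6.5 on the RMA log2 scale. This rule kept 63 of the 83 Kcn genes measured and 63 of the 14497 genes with 1 symbol. Just inside the floor lay Kcns1 and Kcnn4, each with a mean of 6.57, and just outside lay Kcne4 at 6.40 and Kcnh6 at 6.34. All 63 also passed the filter on dim probe sets that left 11778 genes tested.

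The 5 groups held 3 arrays each, all from male Sprague-Dawley rats that had self-administered for 10 days, 6 hours per day. The saline group (Sal) took saline, and the other 4 groups took cocaine at 0.75 mg/kg per infusion. Groups 1W and 30W were then withdrawn for 1 day or 30 days. Groups 1C and 30C were withdrawn for as long and then tested for cue-induced seeking under extinction. The labels give no withdrawal time or test for the saline rats, so Sal against a cocaine group compares more than the drug. Whether RNA was pooled over rats is not stated, so p-values measure only the spread between these samples. The series concerns incubation of craving, in which drug seeking grows over weeks without the drug.

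Potassium channels set the resting potential of a neuron, repolarise its spikes and space its firing. The medium spiny neuron, the projection neuron that makes up most of the striatum, rests at a very negative potential held by inward rectifiers (the Kcnj family) and leaves it slowly because of A-type currents (Kcna and Kcnd pores with Kcnip and Kcnab partners). Leak channels (Kcnk), calcium-activated channels (Kcnm and Kcnn), the M current (Kcnq), the ether-a-go-go family (Kcnh) and sodium-activated channels (Kcnt) make up most of the rest.

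Of the 63 members, 6 were Kcna, 1 Kcnb, 2 Kcnc, 3 Kcnd and 8 silent modifier subunits (Kcnf, Kcng, Kcns and Kcnv). A further 6 were Kcnh, 2 Kcnq, 11 Kcnj, 8 Kcnk, 3 Kcnm, 3 Kcnn and 2 Kcnt, and the auxiliary subunits were 3 Kcnab, 4 Kcnip and 1 Kcne. RMA values of different probe sets were not set against each other as levels, and every comparison below is of 1 gene across arrays.

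Markers of medium spiny neurons gave bright signals on every array, as for Drd2, a dopamine receptor, between 11.21 and 11.88, and Ppp1r1b, a striatal phosphoprotein, between 11.80 and 12.39. The cortical marker Nrgn was bright too, between 12.26 and 12.64, so brightness does not give the share of a cell type. Markers of cortical projection neurons varied within groups. Their score, the mean deviation of 13 measured markers from each marker's own mean, was lowest in Sal replicate 1 (-1.19) and highest in 30C replicate 1 (0.93). Slc17a7, which loads glutamate into vesicles of cortical neurons, ranged 31.9-fold between the same 2 arrays, the widest of the 13. The markers were not uniform: Lmo4 ranged 1.15-fold and Nrgn 1.30-fold, and both were highest in Sal replicate 3. The matching score of 16 medium spiny neuron markers ran from -0.42 in 30C replicate 1 to 0.27 in 1W replicate 3, with 1W replicate 1 at -0.25. Of the 16, Arpp21 went the other way in 30C replicate 1, at 10.18 beside its mean of 10.03. The arrays at the ends of both scores bear on many results below.

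No potassium channel gene passed the test between the 5 groups. In limma, 0 of the 63 members had an adjusted p (Benjamini-Hochberg over 11778 genes) below 0.05 in any of the 8 comparisons of 2 groups, in the 2 averaged effects, in the interaction or in the F test. Over all genes, 0% were called in each of these except withdrawal length averaged over the test, with 0.00849% (1 gene). At an unadjusted p below 0.05 the members counted 3 of 63 for 30C against 30W, beside 3.93% of all genes, and 2 for 1C against 1W, beside 4.02%. They counted 3 for 30W against 1W, beside 10.1%, and 1 for 30C against 1C, beside 5.48%. Against saline they counted 2 for 1W (4.87% of all genes), 0 for 1C (3.43%), 3 for 30W (7.6%) and 1 for 30C (5.06%). For withdrawal length and for the extinction test, each averaged over the other, they counted 3 and 3, beside 13% and 4.85%, and for the F test 1 (Kcnj8), beside 6.96%. The shares of members, at most 4.76%, were near or below those of all genes.

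The intervals were narrow for most members. For 30C against 30W, 58 of the 63 had a 95% interval within 1.5-fold either way, beside 97.6% of all genes, and for 1C against 1W it was 57, beside 97.5%. For 30W against 1W it was 58, beside 97.7%, and for 30C against 1C it was 56, beside 97.5%. Against saline it was 56 for 1W, 1C and 30W and 59 for 30C, beside 97.5%, 97.4%, 97.2% and 97.9% of all genes. Kcnc2, Kcnj3, Kcnj6 and Kcnj16 had intervals reaching past 1.5-fold on at least 1 side in every one of the 8. The members' median within-group SD was 0.14 on the log2 scale, against 0.09 for all genes, while their group means spanned a median of 0.13, against 0.12. The members' typical spread within groups was thus the larger, while their group means lay about as far apart as those of all genes.

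**Figure D1:**
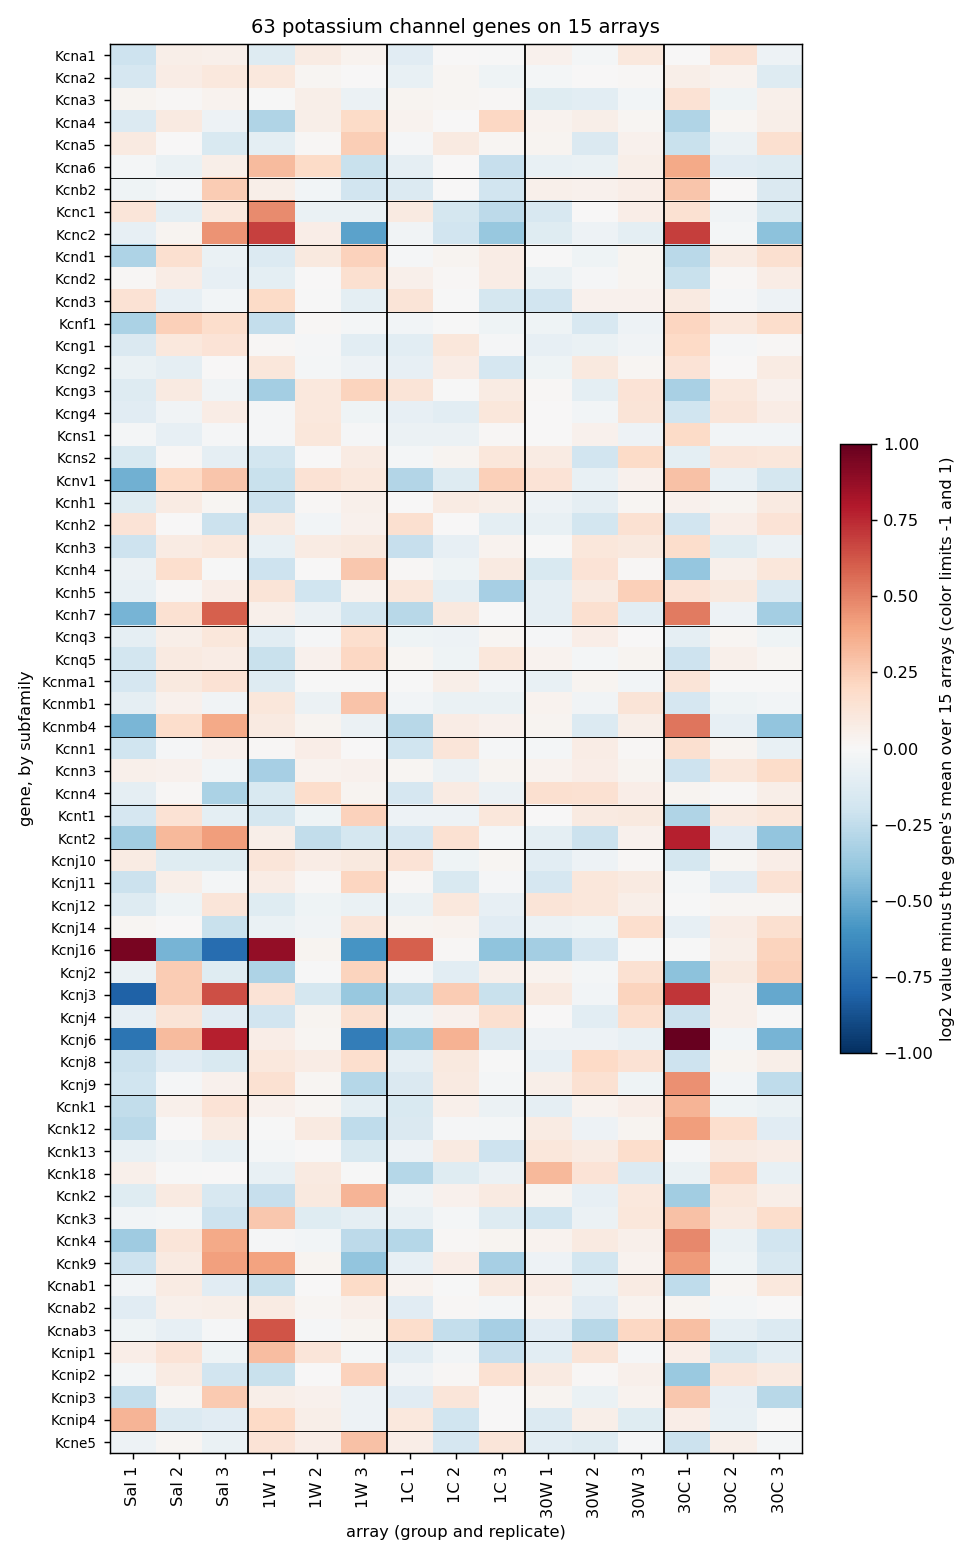
Each row is 1 of the 63 members, grouped by subfamily, and each column 1 array; color is the log2 value minus the gene's mean over 15 arrays, with color limits at -1 and 1. Sal replicate 1 and 30C replicate 1 carry opposite colors in Kcnj3, Kcnj6, Kcnmb4 and Kcnk4.

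Among the inward rectifiers, Kcnj8 had the smallest p between groups. It encodes the pore of an ATP-sensitive channel known from vascular mural cells. Its values were 7.13, 7.23 and 7.19 in Sal replicates 1 to 3, 7.45, 7.42 and 7.51 in 1W, 7.25, 7.45 and 7.34 in 1C, 7.26, 7.54 and 7.49 in 30W, and 7.13, 7.37 and 7.40 in 30C. Every 1W, 1C and 30W array lay above the 3 saline arrays, and 30C replicate 1 lay among them. The log2 difference of 1W from Sal was 0.27 (SE 0.08, limma adjusted p = 0.84) and that of 30W from Sal 0.25 (SE 0.08, adjusted p = 0.49), and both share the saline arrays. Of 8 endothelial and mural markers, 8 were also higher in 1W than in Sal, though 0 passed the test, and their score was 0.07 to 0.12 in 1W and -0.13 to 0.01 in Sal. In 30W it was -0.06 to 0.07, with 6 of the 8 markers higher than in Sal. Within groups Kcnj8 had a slope of 1.03 (SE 0.41, adjusted p = 0.50) on that score, and the score's part in the difference was not tested further.

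Kcnj12, a strong inward rectifier, was 8.27, 8.35 and 8.33 in 1W and 8.52, 8.51 and 8.45 in 30W. The groups did not overlap, and the log2 difference was 0.18 (SE 0.06, adjusted p = 0.40). Kcnj10, the inward rectifier of astrocytes and oligodendrocytes, was 10.51, 10.46 and 10.48 in 1W and 10.29, 10.34 and 10.40 in 30W, a difference of -0.14 (SE 0.07, adjusted p = 0.53). Beside it, 9 of 9 oligodendrocyte markers and 4 of 8 astrocyte markers were lower in 30W than in 1W, with 0 past the test. Of all genes, 39.7% were higher in 30W. The oligodendrocyte score was -0.03 to 0.21 in 1W and -0.04 to 0.04 in 30W, and its part in the difference was not tested. Of all genes, 16% had groups that did not overlap in this comparison, beside 5 of the 63 members.

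The leak channel Kcnk13, known from microglia, was 7.74, 7.77 and 7.61 in 1W and 7.87, 7.84 and 7.94 in 30W, a log2 difference of 0.18 (SE 0.07, adjusted p = 0.41). Averaged over the test, it had the smallest adjusted p of the members for withdrawal length, at 0.28. The 8 microglia markers were all lower in 30W than in 1W, the other direction from Kcnk13, again with 0 past the test. Probe sets of like signal (means of 7.5 to 9) had a median difference of -0.04 in this comparison, also in the other direction. Kcnk4, another leak channel, had a log2 difference of 0.16 between 30W and 1W (adjusted p = 0.82). Beside it, 11 of 13 cortical markers were higher in 30W (median 0.10), with scores of -0.51 to 0.14 in 1W and -0.06 to 0.17 in 30W. Kcnk4 rose with that score within groups, by 0.39 per unit (below). With that score added to the fit of the groups, the difference of Kcnk4 kept its direction and did not pass. Direction alone does not show how much of it remained. The score's part in the difference was not tested further.

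Kcnk3, an acid-sensitive leak channel, was 7.74, 7.54 and 7.62 in 30C and 7.37, 7.43 and 7.32 in 1C. The groups did not overlap, and the log2 difference was 0.26 (SE 0.10, adjusted p = 0.83). In 30W it was 7.25, 7.39 and 7.56, and in Sal 7.42, 7.43 and 7.24, so that 30C differed from Sal by 0.27 (SE 0.10, adjusted p = 0.91). Its interaction of test and withdrawal length was 0.33 (SE 0.15), with a 95% interval from 0.01 to 0.64 and adjusted p = 1.00. It was the only member at an unadjusted p below 0.05 for the interaction, beside 3.03% of all genes. Of 7 interneuron markers, 6 were higher in 30C than in 1C, with 0 past the test and scores of -0.03 to 0.08 against -0.16 to 0.11. Kcnk3 rose with that score within groups (below), and the score's part in the difference was not tested.

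Other members with small unadjusted p-values came from several subfamilies. Kcnip1, a calcium-binding partner of Kcnd pores, was 9.65, 9.46 and 9.32 in 1W and 9.24, 9.31 and 9.11 in 1C, a difference of -0.26 (SE 0.09, adjusted p = 1). Its other probe set gave -0.25. Beside it, 6 of 7 interneuron markers were lower in 1C (median -0.16), with scores of -0.05 to 0.40 in 1W and -0.16 to 0.11 in 1C. All 9 oligodendrocyte markers were lower too (median -0.18), with scores of -0.03 to 0.21 and -0.07 to -0.05. None of these markers passed the test, and within groups Kcnip1 had slopes of 0.50 (limma adjusted p = 0.21) and 0.85 (adjusted p = 0.64) on the interneuron and oligodendrocyte scores. Their part in the difference was not tested further.

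Kcne5, a single-pass accessory subunit, was 8.99, 8.91 and 9.14 in 1W and 8.74, 8.72 and 8.83 in 30W, a difference of -0.25 (SE 0.09, adjusted p = 0.38). Also lower in 30W were 8 of 8 endothelial and mural, 8 of 8 microglia, 5 of 5 oligodendrocyte precursor and 9 of 9 oligodendrocyte markers, with 0 past the test. Most genes went this way: 39.7% of all genes were higher in 30W than in 1W. Within groups Kcne5 had a slope of 0.68 (limma adjusted p = 0.69) on the endothelial score and -0.98 (adjusted p = 0.45) on the microglia score, and their part in the difference was not tested further. Kcnf1, a silent subunit that joins Kcnb pores, was 10.26, 10.15 and 10.22 in 30C and 10.01, 9.89 and 9.99 in 30W, a difference of 0.25 (SE 0.11, adjusted p = 1.00).

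Kcna3, a voltage-gated pore known from lymphocytes and microglia, had the smallest p of the members for 30C against 30W. It is named here after its values were seen, at 9.94, 9.75 and 9.84 in 30C and 9.67, 9.69 and 9.76 in 30W. The groups overlapped by 1 array, and the log2 difference was 0.14 (SE 0.05, adjusted p = 1.00). Kcnn4, an intermediate-conductance calcium-activated channel, was 6.73, 6.72 and 6.64 in 30W and 6.48, 6.58 and 6.26 in Sal, a difference of 0.26 (SE 0.09, adjusted p = 0.53). Kcnmb1, the smooth muscle beta subunit of the large-conductance channel and also named after its values were seen, was -0.17 in 1C against 1W (SE 0.08, adjusted p = 1). Averaged over withdrawal length, its difference with the extinction test was -0.14 (SE 0.05, adjusted p = 0.99). None of these passed the test.

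**Figure D2:**
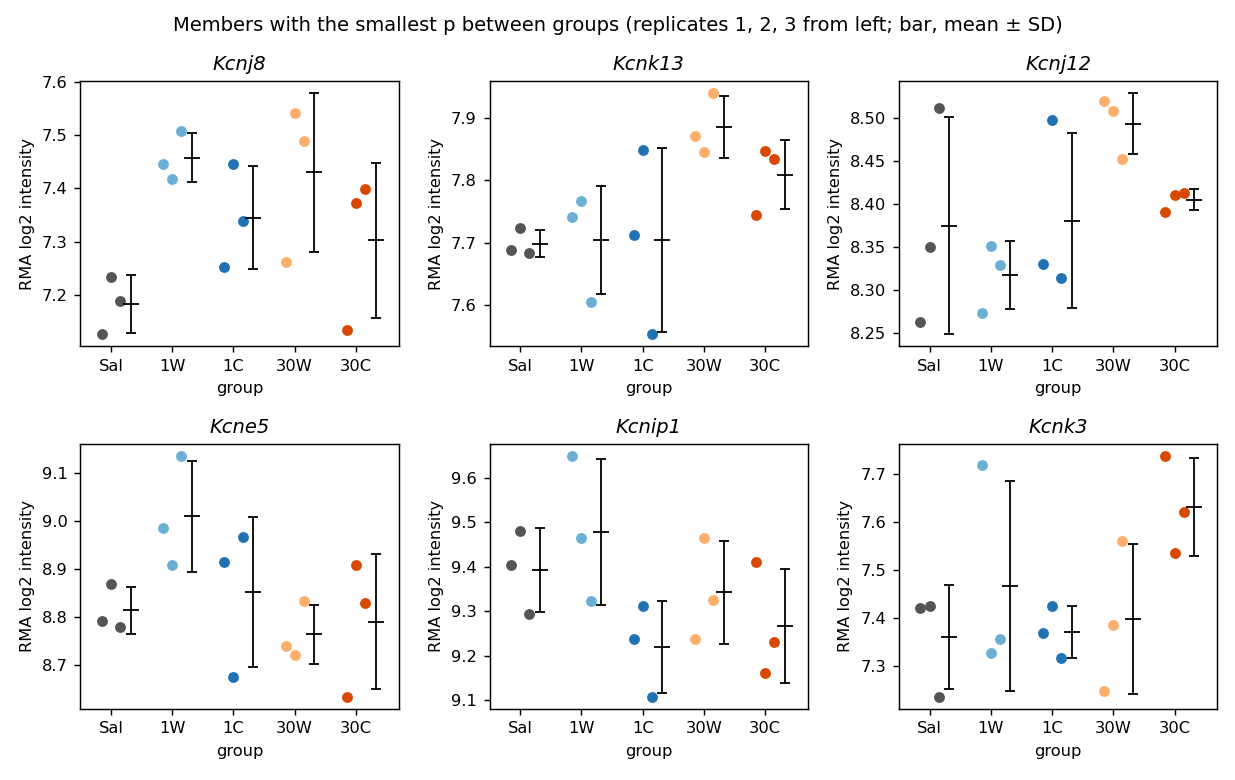
RMA log2 intensity (vertical axis) of Kcnj8, Kcnk13, Kcnj12, Kcne5, Kcnip1 and Kcnk3 by group; points are replicates 1, 2 and 3 from left and bars the mean ± SD of 3 arrays. Groups separate for single pairs, such as Sal and 1W for Kcnj8, by 0.3 log2 units or less, and no pair passed the adjusted test.

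The other members named for groups that did not overlap showed differences of 0.26 log2 units or less, and none passed. For 30C against 30W these were Kcng1 (0.13), Kcnh1 (0.09) and Kcnn4 (-0.09), with Kcnj12 at -0.09, and 5 of 63 members did not overlap beside 8.38% of all genes. Kcnab2 was -0.09 in 1C against 1W, with 2 members beside 7.86%. In 30C against 1C, Kcnf1 was 0.19, with 2 members beside 9.69%. Against saline, Kcne5 was 0.20 and Kcnab3 0.26 in 1W, with 3 members beside 8.09%. The difference of Kcnab3 was 0.06 without 1W replicate 1. Kcnk18 was -0.17 in 1C, with 2 members beside 7.18%, and Kcnn4 (0.26), Kcnk13 (0.19) and Kcna3 (-0.11) differed in 30W, with 4 beside 13.7%. Kcng2 (0.13) and Kcnk13 (0.11) were higher in 30C, with 3 beside 8.41%.

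The subfamilies are described by their median log2 change, with no test. For 30C against 30W the medians ran from -0.06 for Kcnq (2 genes) to 0.10 for Kcnc (2 genes), and over all members the median was 0.00, as over all genes. For 1C against 1W all members had a median of -0.03 and all genes one of -0.005. The lowest was -0.25 for Kcnc, whose members Kcnc1 and Kcnc2 were -0.23 and -0.27. Within 1W both were highest in replicate 1. Kcnc1 was 9.91 there and 9.37 in replicates 2 and 3, while Kcnc2 stepped down over the 3 replicates, at 9.59, 8.97 and 8.37. The same array held the highest interneuron score, 0.40, and 6 of 7 interneuron markers were lower in 1C than in 1W, with 0 past the test. For 30W against 1W all members had a median of 0.01 and all genes one of -0.02. The medians of Kcna (6 genes), Kcnd (3) and Kcnj (11) were -0.06, -0.07 and 0.02. Those of Kcnc (both lower) and Kcnn (3 genes) were -0.15 and 0.11, and the single Kcne gene was -0.25. The 2 Kcnq genes were 0.00 and 0.01, and Kcnma1, the pore of the large-conductance calcium-activated channel, was 0.02. For 30C against 1C, Kcnk had a median of 0.17 with 7 of 8 genes higher, Kcnc one of 0.19 and the silent subunits one of 0.07 with 7 of 8 higher, where all members had 0.05 and all genes -0.01.

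Splits of direction over the members are given beside those of all genes, with no test. Of the 63 members, 42 were higher in 1W than in Sal, beside 57.7% of all genes, a split that fell to 36 after further quantile normalization and 32 after median centring. For 30C against 1C, 43 were higher, beside 44.3% of all genes, and 45 under each of these scalings. With the extinction test, averaged over withdrawal length, 20 were higher, beside 48.7% of all genes, and 21 and 19 under the 2 scalings.

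What varied was the level of many members from array to array inside the groups. Kcnj6 and Kcnj3 encode subunits of the G protein-gated inward rectifier, through which dopamine, opioid and GABA-B receptors hyperpolarise neurons. Kcnj6 had the widest range of the 63 members, 1.80 log2 units or 3.49-fold, followed by Kcnj16 (1.71), Kcnj3 (1.53), Kcnc2 (1.23) and Kcnt2 (1.17). Kcnj6 was 7.15, 8.20 and 8.66 in Sal replicates 1 to 3, 7.95, 7.90 and 7.19 in 1W, 7.51, 8.23 and 7.73 in 1C, 7.83, 7.83 and 7.81 in 30W, and 8.96, 7.86 and 7.41 in 30C. Its lowest value was in Sal replicate 1 and its highest in 30C replicate 1, the same arrays that held the lowest and highest cortical score. Kcnj3 was 9.16, 10.23 and 10.62 in Sal, 10.11, 9.80 and 9.59 in 1W, 9.73, 10.23 and 9.75 in 1C, 10.06, 9.95 and 10.20 in 30W, and 10.69, 10.03 and 9.46 in 30C. Its extremes fell on the same 2 arrays.

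Promoter sequence was available for 44 of the 63 members from RefSeq (build GRCr8), from 250 bases before to 50 after each gene's start. Kcnj6 had the steepest slope on the cortical score, and Kcnk2, Kcnip2 and Kcnj2 had the 3 smallest p-values on the medium spiny neuron score, described below. Kcnk2 was matched but not picked. The promoters of Kcnj6, Kcnj2 and Kcnip2 were picked by hand and are shown as examples. They lie at chr11:47778299-47778598 (minus strand), chr10:96559975-96560274 (plus strand) and chr1:254613849-254614148 (minus strand). Each reads 5′ to 3′ on the gene's strand, and capitals mark GGGCGG, the box bound by SP1, searched on both strands.
Kcnj6: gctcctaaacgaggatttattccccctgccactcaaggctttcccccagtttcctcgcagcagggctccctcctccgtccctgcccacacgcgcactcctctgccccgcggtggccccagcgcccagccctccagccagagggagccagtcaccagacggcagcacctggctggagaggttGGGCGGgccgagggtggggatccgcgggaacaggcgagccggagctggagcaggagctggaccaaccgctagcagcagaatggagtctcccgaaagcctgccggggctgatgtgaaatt
Kcnj2: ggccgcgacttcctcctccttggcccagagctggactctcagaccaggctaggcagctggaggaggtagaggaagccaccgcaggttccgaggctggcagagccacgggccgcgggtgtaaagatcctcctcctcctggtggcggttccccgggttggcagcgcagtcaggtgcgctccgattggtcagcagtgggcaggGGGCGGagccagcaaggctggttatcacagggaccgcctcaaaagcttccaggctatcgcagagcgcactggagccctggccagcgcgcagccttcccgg
Kcnip2: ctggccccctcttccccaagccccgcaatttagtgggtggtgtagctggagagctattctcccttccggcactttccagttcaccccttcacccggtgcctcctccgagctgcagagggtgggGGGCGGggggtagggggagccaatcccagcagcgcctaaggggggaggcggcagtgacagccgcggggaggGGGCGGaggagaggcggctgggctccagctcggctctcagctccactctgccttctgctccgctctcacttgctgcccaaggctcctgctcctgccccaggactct
Kcnj6 and Kcnj2 each hold 1 such box and Kcnip2 holds 2, where 33.1% of 33469 promoters of this length hold at least 1. The box was found in 22 of the 44 matched members, in 7 of the 8 matched members that rose with the cortical score and in 5 of the 13 that rose with the medium spiny neuron score. TATAAA was found in 0 of the 44, beside 14.2% of all promoters, and the full cAMP response element TGACGTCA in 0, beside 1.83%. The matched members held a median of 18.5 CG pairs and 66.3% G and C, against 7 and 51.7% over all promoters. A box of G and C letters is more frequent in such sequence, and a match is not evidence of binding.

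The cortical score was therefore put into the fit beside the groups, and each gene's slope on it was tested within groups. The slope is the log2 change per unit of score, and the score spanned 2.11 units over the 15 arrays. Of the 63 members, 17 passed (27.0%), where 5.49% of all genes did. There were 16 that rose with the score, beside 3.91% of all genes, and 1 that fell, beside 1.59%. In bulk tissue, fewer cells of a type and less RNA per cell cannot be told apart, and where on the dissection such cells lay is not in the data.

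The G protein-gated subunits Kcnj6 and Kcnj3 had the 2 smallest p-values. Kcnj6 rose by 0.88 per unit of score (SE 0.06, limma adjusted p = 8.0e-07) and Kcnj3 by 0.73 (SE 0.06, adjusted p = 6.7e-06). Kcnj9, the third neuronal subunit of this channel, rose by 0.28 (SE 0.06, adjusted p = 0.012). The strong inward rectifiers Kcnj2, Kcnj4 and Kcnj12 had slopes of -0.16, -0.05 and 0.07, none past the test. Kcnj10 was the 1 member that fell, by 0.13 per unit (SE 0.03, adjusted p = 0.014).

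Of 8 leak channels, 4 rose with the cortical score: Kcnk4 by 0.39, Kcnk9 by 0.36, Kcnk12 by 0.26 and Kcnk1 by 0.22. Kcnmb4, the neuronal beta subunit of the large-conductance channel, rose by 0.47 (SE 0.05, adjusted p = 2.4e-05). The pore Kcnma1 had a slope of 0.11 (adjusted p = 0.086). Kcnmb4 was 8.18, 8.81 and 9.02 in Sal and 9.17, 8.55 and 8.24 in 30C, the order of the cortical score within both groups.

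Kcnh7, an ether-a-go-go related pore, rose by 0.50 (SE 0.06, adjusted p = 0.00016), the sodium-activated Kcnt2 by 0.51 (SE 0.07, adjusted p = 0.00077), and Kcnip3, a calcium-binding partner of Kcnd pores that also acts as a transcriptional repressor, by 0.27 (SE 0.03, adjusted p = 0.00023). The silent subunits Kcnv1 and Kcng1 rose by 0.32 and 0.15, Kcnb2 by 0.18, the small-conductance Kcnn1 by 0.15 and the axonal pore Kcna2 by 0.13. Kcnd2, the main A-type pore of many neurons, had a slope of -0.10 (adjusted p = 0.19), Kcnn3 one of -0.13, Kcnh2 one of -0.17, Kcna5 one of -0.15 and Kcnj14 one of -0.12, none past the test.

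**Figure D3:**
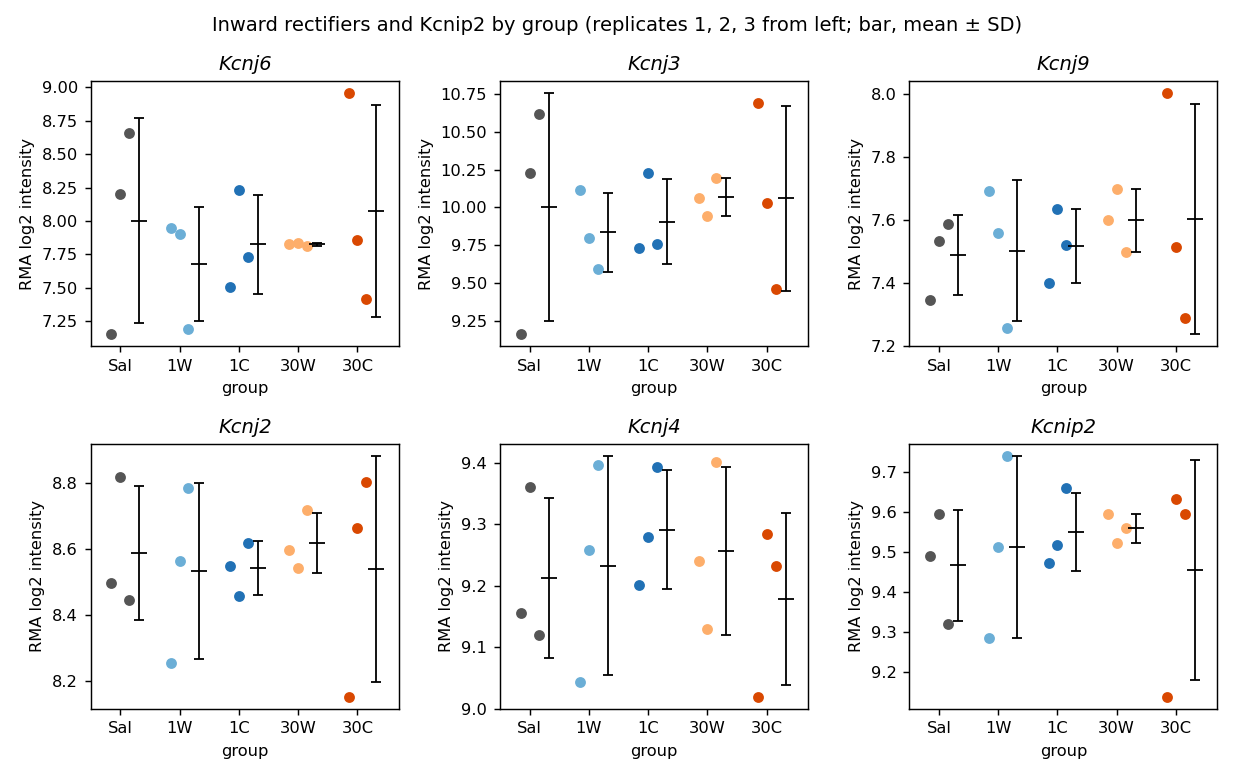
RMA log2 intensity (vertical axis) of Kcnj6, Kcnj3, Kcnj9, Kcnj2, Kcnj4 and Kcnip2 by group; points are replicates 1, 2 and 3 from left and bars the mean ± SD of 3 arrays. Sal and 30C hold the widest spread for Kcnj6 and Kcnj3, in opposite replicate positions, and in 30C replicate 1 the genes Kcnj2 and Kcnip2 are at their lowest.

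A slope on the medium spiny neuron score was added after the data were seen. It passed in 21 of the 63 members (33.3%), where 6.76% of all genes did: 15 rose, beside 3.7% of all genes, and 6 fell, beside 3.06%. This score spanned only 0.68 log2 units, so its slopes are larger numbers for the same spread. The leak channel Kcnk2 rose by 0.93 per unit (SE 0.09), the auxiliary subunit Kcnip2 by 0.88 (SE 0.09), both with adjusted p = 0.00011, and the inward rectifier Kcnj2 by 1.08 (SE 0.11, adjusted p = 0.00012).

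Kcnk2 was 9.81, 10.03 and 9.78 in Sal, 9.70, 10.04 and 10.28 in 1W, 9.90, 9.98 and 10.03 in 1C, 9.96, 9.86 and 10.04 in 30W, and 9.59, 10.05 and 9.99 in 30C. Kcnip2 was 9.49, 9.59 and 9.32 in Sal, 9.28, 9.51 and 9.74 in 1W, 9.47, 9.52 and 9.66 in 1C, 9.59, 9.52 and 9.56 in 30W, and 9.14, 9.63 and 9.60 in 30C. Kcnj2 was 8.50, 8.82 and 8.45 in Sal, 8.25, 8.56 and 8.78 in 1W, 8.55, 8.46 and 8.62 in 1C, 8.60, 8.54 and 8.72 in 30W, and 8.15, 8.66 and 8.80 in 30C. All 3 genes were lowest in 30C replicate 1 and next lowest in 1W replicate 1, the arrays with the 2 lowest scores. The other probe set of Kcnip2 gave a slope of 0.71.

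The other members that rose with this score included A-type pores, a partner of such pores and a further inward rectifier. Kcnab1 rose by 0.69, Kcna4 by 0.77, Kcnd2 by 0.47, Kcnd1 by 0.76, Kcnj4 by 0.64, Kcnt1 by 0.78, Kcng3 by 0.86, Kcnn3 by 0.62, Kcnh4 by 0.81, Kcnq5 by 0.61, Kcns2 by 0.53 and Kcna5 by 0.54. Kcnd3 (-0.45), Kcnip1 (-0.45), Kcnip4 (-0.36), Kcnq3 (0.26), Kcnj11 (0.16), Kcnh1 (0.27), Kcnab2 (0.01) and Kcna1 (0.24) did not pass. With the cortical score also in the fit, 4 of these passed in limma: Kcnd3 (-0.61, adjusted p = 0.018), Kcnip4 (-0.69, adjusted p = 0.0096), Kcna1 (0.45, adjusted p = 0.015) and Kcnh1 (0.39, adjusted p = 0.047). Of the 3 Kcnd genes, 2 passed without the cortical score and 3 with it, 1 of them falling. In the same limma fit Kcna5 no longer passed (0.41, adjusted p = 0.12). Kcnj6 newly fell (-0.57, adjusted p = 0.017) and Kcnf1 newly rose (0.53, adjusted p = 0.047). On the cortical score in that fit, Kcnip4 newly fell (-0.23, adjusted p = 0.0060), and Kcnf1 (0.23, adjusted p = 0.0085) and Kcna1 (0.15, adjusted p = 0.0099) newly rose. The fit of both scores was not repeated without the arrays farthest out. On the cortical score alone, without Sal replicate 1 and 30C replicate 1, the slopes of Kcnip4, Kcnf1 and Kcna1 were -0.09, -0.06 and 0.09. None of these passed.

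Of the 6 that fell, Kcnc2 had the steepest slope and the smallest p (-1.86, SE 0.24, limma adjusted p = 0.00079). Kcna6 had the next smallest p (-0.88, adjusted p = 0.0031). Kcnc1, like Kcnc2 a pore of fast-spiking neurons, had a slope of -0.79 (SE 0.17, adjusted p = 0.017). Those of Kcnk9, Kcnj9 and Kcnb2 were -1.13, -0.85 and -0.58. Kcnc2 was 9.59 in 1W replicate 1 and 9.60 in 30C replicate 1, its 2 highest values, and 8.37 in 1W replicate 3, its lowest. Kcnb2, Kcnj9 and Kcnk9 passed on both scores, rising with the cortical score and falling with the medium spiny neuron score. In all, 35 of the 63 members passed on at least 1 of the 2 scores, beside 11.6% of all genes, and 28 on neither.

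**Figure D4:**
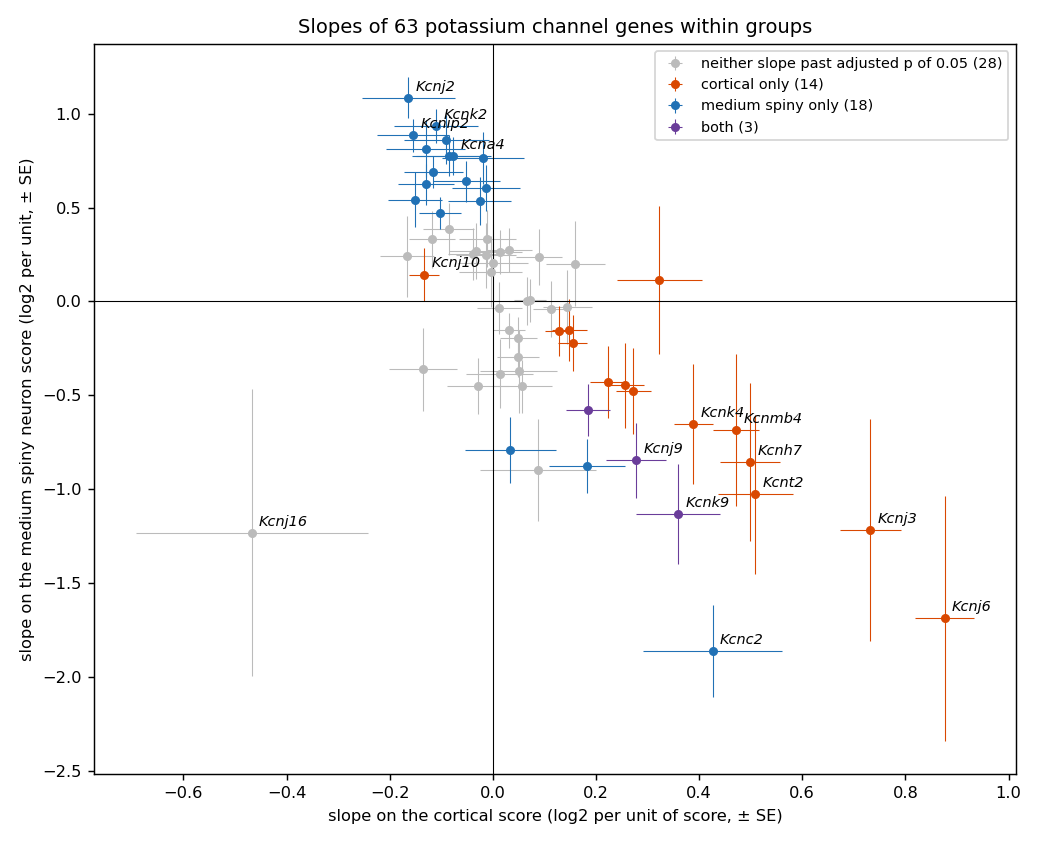
Slope of each of the 63 members on the cortical score (horizontal) against its slope on the medium spiny neuron score (vertical), in log2 per unit of score with SE bars; colors mark which slope passed an adjusted p of 0.05. Kcnj6 and Kcnj3 lie at the far right, Kcnj2, Kcnk2 and Kcnip2 at the top left, and the 3 members that passed on both lie at the lower right.

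The calls depended on few arrays, while the slopes of the members called kept their direction. The fits compared share most of their arrays, so a kept sign is a weak check. Some members not called changed sign, among them Kcnf1 and Kcnma1 on the cortical score and Kcnk3 and Kcnmb4 on the medium spiny neuron score. Without Sal replicate 1 and 30C replicate 1, the 2 arrays farthest from the median cortical score, 1 member passed (Kcnj6, slope 0.98, adjusted p = 0.0011), beside 0.688% of all genes. All 17 kept their sign, and 15 had an unadjusted p below 0.05. Kcnj3 kept a slope of 0.71 (limma adjusted p = 0.054), while that of Kcnv1 fell from 0.32 to 0.08. Without 30C replicate 1 and 1W replicate 1, the arrays farthest in the medium spiny neuron score, 0 members and 0% of all genes passed in limma. All 21 kept their sign and 13 had an unadjusted p below 0.05. The slopes of Kcnk2, Kcnip2 and Kcnj2 were then 0.98, 0.96 and 1.19, while that of Kcnn3 fell from 0.62 to 0.13. Leaving out 1 array, the cortical count was 11 without 30C replicate 1 and 10 without 30C replicate 3, beside 2.99% and 3.28% of all genes. The medium spiny neuron count was 10 without 30C replicate 1 and 12 without 1W replicate 1, beside 2.09% and 2.22%. With both scores in the fit, 21 members passed on the cortical score, beside 6.04% of all genes, and 27 on the medium spiny neuron score, beside 7.14%.

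**Figure D5:**
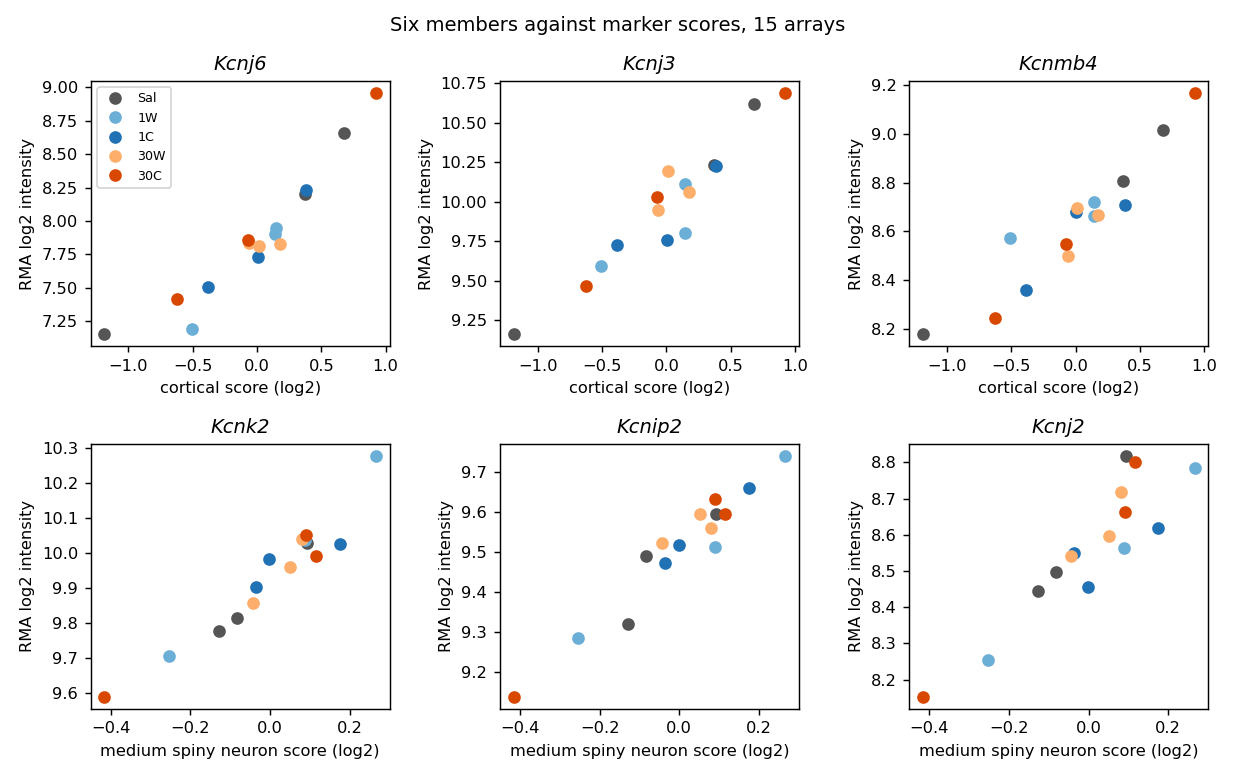
RMA log2 intensity (vertical axis) of Kcnj6, Kcnj3 and Kcnmb4 against the cortical score and of Kcnk2, Kcnip2 and Kcnj2 against the medium spiny neuron score (horizontal axes, log2); each point is 1 of 15 arrays, colored by group. The 3 upper genes climb from Sal replicate 1 at a score of -1.19 to 30C replicate 1 at 0.93, and the 3 lower genes are lowest in 30C replicate 1 at -0.42.

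Of the members that passed on neither score alone, Kcnj16 had the widest range. Kcnj16, an inward rectifier subunit that pairs with Kcnj10 in glia, was 7.97, 6.56 and 6.26 in Sal, 7.91, 7.05 and 6.44 in 1W, 7.62, 7.04 and 6.62 in 1C, 6.69, 6.86 and 7.02 in 30W, and 7.02, 7.09 and 7.25 in 30C. Sal, 1W and 1C each held 1 array above the other two by 0.5 log2 units or more, and 30W and 30C did not. With the cortical and medium spiny neuron scores both in the fit it passed in limma on both, at -0.79 (SE 0.15, adjusted p = 0.0071) and -2.35 (SE 0.48, adjusted p = 0.011). That fit was not repeated without the arrays farthest out. On the cortical score alone, without Sal replicate 1 and 30C replicate 1, the slope of Kcnj16 was 0.13 (SE 0.44), the other direction.

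Slopes on the other 7 marker scores were also added after the data were seen. On the interneuron score (7 markers, -0.24 in Sal replicate 3 to 0.40 in 1W replicate 1) 2 members passed, beside 1.27% of all genes: Kcnj16 with 3.14 (SE 0.49, adjusted p = 0.0098) and Kcnk3 with 0.72 (SE 0.15, adjusted p = 0.044). The interneuron markers were not uniform. In Sal replicate 1, where Kcnj16 was highest, Calb2 was at its highest (8.64) and Lhx6 was 8.27 beside its mean of 7.88. Sst (12.49) and Npy (11.34) were at their lowest there. Slopes on this score were not repeated with arrays left out. Kcnj16 had a slope of 7.47 (SE 1.13, adjusted p = 0.058) on the astrocyte score. In limma 0 members passed on the astrocyte, oligodendrocyte, oligodendrocyte precursor, microglia, endothelial and choroid plexus scores. Over all genes, 0.0255%, 0%, 0%, 0%, 0% and 0.00849% passed. Unadjusted, 12, 14, 4, 25, 19 and 7 of the 63 had p below 0.05, beside 11.5%, 8.18%, 8.97%, 11.1%, 9.53% and 5.23% of all genes.

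Genes that work with potassium channels outside the Kcn symbols were read beside the members. Of 36 listed (accessory, scaffold and G protein genes and the Hcn cation channels), 31 were measured and tested, and 0 passed in any group comparison, with at most 3 at an unadjusted p below 0.05. The smallest p was that of Lrrc38, an accessory subunit of the large-conductance channel, at 0.34 for 30C against 1C (SE 0.08, adjusted p = 0.61) and 0.29 for 30C against 30W (SE 0.08, adjusted p = 1.00). On the cortical score 2 of the 31 rose (Rgs7 and Rgs4, regulators of G protein signalling), beside the 3.91% of all genes that rose. On the medium spiny neuron score 4 rose (Dlg4, Akap5, Nedd4l and Rgs9, the last itself a marker in that score) and 1 fell (Gng3), 5 of 31 beside 6.76% of all genes.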

How the data were processed

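The authors deposited 1 table of RMA log2 values for 28826 probe sets on 15 arrays, per the submitters' processing notes, which name RMA without a version. RMA corrects background, quantile-normalizes the arrays and summarises probes, so differences in total RNA are not kept. Which software ran it is not given in the sources used here. Per the labels, RNA was labelled with a kit meant for 3' arrays, although the probe set numbers belong to an array of whole transcripts.

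Platform annotation gave 15209 probe sets 1 symbol. Each of 14497 genes was represented by its probe set with the highest mean, and the 11778 genes that exceeded an array's 30th percentile on 3 or more arrays were tested. One model over all 15 arrays, with group as the only term, was fitted with limma 3.58.1 in R 4.3.3 (lmFit, eBayes; 10 residual and 3.44 prior degrees of freedom), two-sided. P-values were adjusted by Benjamini-Hochberg over all genes, with a threshold of 0.05, and intervals are 95%. Slopes added 1 marker score to that model, leaving Kcn genes out of the scores. The arrays' number limits the precision. An exact test of 3 arrays against 3 cannot give a p below 0.1.

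Members, marker lists and tests were chosen with earlier results of these data known. Named members were up to 4 per direction in each comparison by smallest p among those whose groups did not overlap, up to 6 per direction by slope, a fixed set of 38 channel genes (34 of them members, the others not reported here), the 5 widest ranges and the genes at the floor. Up to 3 partner genes per comparison could be named. Members called on the medium spiny neuron and interneuron slopes beyond these were chosen after their values were seen. The scripts were tested on simulated data.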

Additional observations from a re-analysis of the deposited data

How the results depend on the processing

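The 12 counts of members called between groups stayed at 0 under all 332 values. These came from other filters, probe set choices, normalizations, variance models, array weights, thresholds, single arrays left out and the replicate number as a block. They also came from fits with the cortical or the medium spiny neuron score added, and from fits to only the arrays compared. The 26 differences named between groups kept their direction, and none passed, in all 723 values. Replicate numbers are not said to pair the arrays. Same-numbered arrays of different groups had correlations of their deviations from -0.63 to 0.51, and 5 of 15 arrays correlated best with their own number. These values do not settle whether the numbers mark a pairing. With the replicate block, 18 members passed on the cortical score (17 without it) and 14 on the medium spiny neuron score (21 without it), of which 17 and 13 were the same genes.

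Leaving out 1 array at a time, the cortical count ran from 10 to 18 and the medium spiny neuron count from 10 to 25. Leaving out the 2 arrays farthest from the median score, chosen after seeing the data, left 1 and 0. The cause was not tested beyond that construction, which has fewer arrays and a narrower range of score. Of 648 values for 24 named slopes, 39 no longer passed, 2 newly passed (Kcnh2 at a threshold of 0.10, Kcnd2 without Sal replicate 1) and 0 changed direction. With 3 arrays a group, differences below about the width of the intervals given were not resolved.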
